A study of Mus musculus with 6 samples.

Results

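Polycomb repressive complex 1 (PRC1) comes in canonical and variant forms, and the genes described here code for the core of the variant forms and for Rybp and its homologue Yaf2. They are Rybp, Yaf2, Ring1, Rnf2, Pcgf1, Pcgf3, Pcgf5, Kdm2b and Bcor. These are 9 of the 19324 genes in the array's annotation, and every probe set annotated to any of them was taken, 22 of the 45101 in the table. The only ones for Rybp, 1421111_at and 1428219_at, are shared with its transcribed pseudogene Rybp-ps and were kept. Expression was read on 6 Affymetrix arrays from 129/B6 hybrid mouse embryonic stem cells. Clone 3031 has wild-type Yaf2 (Yaf2wt), and clones 3086 and 3087 have a Yaf2 knockdown (Yaf2kd), which the labels also call mutant. Each clone was measured once untreated (OHT-), with wild-type Rybp, and once after 24 hours of 4-hydroxytamoxifen at 0.8 µM (OHT+), given to deplete Rybp. So each treatment of Yaf2wt cells rests on 1 array and each treatment of Yaf2kd cells on 2. The labels do not describe the allele or recombinase behind the depletion, the knockdown construct, the time to harvest or which cultures had feeder fibroblasts. Yaf2wt is a single clone, so a Yaf2 difference and a clone difference cannot be told apart.

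Every PRC1 has a catalytic pair of RING-finger proteins, either Ring1 or Rnf2 (Ring1B) with 1 of the Pcgf proteins, and adds ubiquitin to histone H2A. In variant complexes Rybp or Yaf2 takes the place on the RING pair that a Cbx protein has in canonical complexes, and it raises the activity of the pair. The Pcgf partner decides which further subunits join. With Pcgf1 these are Bcor and Kdm2b, whose zinc finger binds unmethylated CpG dinucleotides and so brings the complex to CpG islands. Rybp and Yaf2 can fill the same place, which raises the question of whether Yaf2 or another subunit is higher where Rybp is depleted, and the converse for the Yaf2 knockdown.

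Sequence is shown for Kdm2b and Bcor, the members whose bright probe sets differed most between OHT+ and OHT- arrays apart from those of Rybp. The sequences are from RefSeq on build GRCm38.p6, and windows of 6 of the 9 genes were used. Each run is the 250 bases before a start, on the minus strand of the genome and 5′ to 3′, with each CG dinucleotide in capitals. Kdm2b has 4 listed starts, near its 5′ end and inside the gene. The window with the most CG of each kind is printed, with 1 of the 2 overlapping windows of Bcor. The windows are chr5:122989100-122989349 and chr5:122900351-122900600 for Kdm2b and chrX:12160347-12160596 for Bcor.
Kdm2b, outer start: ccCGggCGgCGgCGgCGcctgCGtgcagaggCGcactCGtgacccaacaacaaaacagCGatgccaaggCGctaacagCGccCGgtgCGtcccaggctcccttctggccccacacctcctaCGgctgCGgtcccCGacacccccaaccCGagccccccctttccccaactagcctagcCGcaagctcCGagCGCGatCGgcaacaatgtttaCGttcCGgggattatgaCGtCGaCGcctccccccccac
Kdm2b, inner start: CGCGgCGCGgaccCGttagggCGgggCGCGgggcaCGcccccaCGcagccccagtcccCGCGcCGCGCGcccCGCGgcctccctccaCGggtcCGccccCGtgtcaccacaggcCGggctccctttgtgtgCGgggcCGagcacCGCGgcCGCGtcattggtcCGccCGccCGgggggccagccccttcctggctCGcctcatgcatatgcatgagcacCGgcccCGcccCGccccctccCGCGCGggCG
Bcor: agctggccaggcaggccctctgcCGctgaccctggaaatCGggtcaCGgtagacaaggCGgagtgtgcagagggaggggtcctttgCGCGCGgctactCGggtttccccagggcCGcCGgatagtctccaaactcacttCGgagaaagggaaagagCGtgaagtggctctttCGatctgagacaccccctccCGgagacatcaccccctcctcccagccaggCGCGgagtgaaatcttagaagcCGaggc
The outer Kdm2b window holds 27 CG, the inner one 38 and the Bcor window 17. Of the Kdm2b windows not printed, the other outer one holds 12, which 33.5% of all windows reach, and the other inner one, which overlaps that printed, holds 36. Over the windows of all 32851 listed starts the median is 6, and 8.56%, 1.88% and 23.5% of them hold at least as many as these windows in the same order. The E-box CACGTG, which reads the same on both strands, is in 6.02% of all windows and in none of the 12 windows of the members. No source used here says which Kdm2b start a probe set reports on.

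The deposited values are linear intensity that the authors had normalized, and their median of 102 on every array is used as the limit for a dim probe set. Of the 22 probe sets 16 had a mean not under that limit and 6 were dim, namely 3 of Rnf2, 2 of Pcgf3 and 1 of Pcgf5. All 10 markers fixed for embryonic stem cells were above the limit, with Dppa5a between 35388 and 39833 and Pou5f1 between 6528 and 9629. The summed signal of 10 fibroblast markers was 1343 to 1612 on OHT- arrays and 1663 to 2163 on OHT+ arrays. With OHT 8 of the 10 were higher. Of the 10, 5 had a mean not under the limit, led by Thy1 at 480 to 774 and Col1a2 at 277 to 466. Lum was at most 48.8 and Dcn at most 85.1. The summed signal of 8 primitive endoderm markers was 1738 to 1871 on OHT- and 1903 to 2164 on OHT+ arrays. Only 4 of the 8 were higher with OHT, and the brightest, Lama1, went from a mean of 783 to 1079. The summed signal of 6 trophectoderm markers, led by Krt18, was 4166 to 5131 in Yaf2wt and 5784 to 7812 in Yaf2kd. By treatment it was 5131 to 7812 on OHT- and 4166 to 6437 on OHT+ arrays, and 0 of the 6 were higher with OHT. The part of these other cell types in the results below was not tested, and in bulk RNA fewer cells of a type and less RNA per cell cannot be told apart. No batch or date is given in the labels.

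Rybp, the subunit that the treatment is meant to remove, has 1 probe set that was lower with OHT and 1 that was higher. The probe set 1421111_at, designed on a RefSeq mRNA, was at 1997, 1785 and 2262 without OHT in clones 3031, 3086 and 3087. With OHT it was at 102.4, 101.2 and 53.9 in the same order. The groups lie far apart, and the OHT+ values are at or under the limit for dim probe sets, so the size of the fall is uncertain. What was left of the signal was 5.13%, 5.67% and 2.38%. The probe set 1428219_at, designed on a cDNA clone, was at 179.9, 211.4 and 335.8 without OHT and at 3247, 3443 and 2796 with it. It separates the treatments as cleanly, in the opposite direction, and is 13.5-fold higher with OHT (95% interval 9.94 to 18.3). Because each could report on Rybp or Rybp-ps, and no source used here says which exons they cover, neither measures how much intact Rybp mRNA remained.

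Both Rybp probe sets passed in the OHT effect over the 3 clones. limma with an intensity trend, adjusted by Benjamini-Hochberg over all 45037 probe sets other than controls, gave log2 differences of -4.61 ± 0.24 (SE) for 1421111_at and 3.75 ± 0.20 for 1428219_at, both with an adjusted p of 1.1e-04. They are the only members among the 63 probe sets called (0.14% of those tested), of which 52 were higher (0.115%) and 11 lower (0.0244%). Without the trend limma called none of the 22, and the adjusted p of both was 0.296. The spread between the 3 clones was 0.68 and 0.61 (SD, log2), with clone 3087 showing the deepest fall on the first probe set and the smallest rise on the second.

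Yaf2, the homologue that could stand in for Rybp, did not move with OHT by more than the spread between arrays. The brighter probe set 1429839_a_at was at 816 without and 769 with OHT in the Yaf2wt clone, at 293 and 297 in clone 3086, and at 238 and 278 in clone 3087. The second, 1423399_a_at, was at 658 and 601, at 221 and 223, and at 252 and 254. The Yaf2wt arrays are above all Yaf2kd arrays on both probe sets, while within each clone the OHT+ and OHT- values are close. The OHT difference was 0.054 (log2, 95% interval -0.29 to 0.40) on the brighter and -0.034 (-0.39 to 0.32) on the second. A rise of Yaf2 above 1.32-fold over the 3 clones lies outside both intervals. Clones 3086 and 3087 in this fit carry the knockdown. Only clone 3031 has wild-type Yaf2, with a single array per treatment, so the bound is not one for wild-type Yaf2 alone.

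The knockdown itself was read on the same probe sets. The Yaf2kd arrays were at 276 ± 27.2 (SD, n = 4 arrays of clones 3086 and 3087) against 793 ± 33.6 (n = 2 arrays of clone 3031) on the brighter probe set. Here n counts arrays and not clones, so the Yaf2wt SD is within a single clone. Without OHT they held 32.5% of the Yaf2wt signal on the brighter probe set and 35.9% on the second, and with OHT 37.4% and 39.7%. Adjusted for OHT, limma gave -1.52 ± 0.16 and -1.41 ± 0.17 (log2 ± SE), with an adjusted p of 0.163 and 0.167. Neither passed, since 0 of all probe sets did in this comparison (0%), with 4032 at an unadjusted p under 0.05. Left without the OHT- array of clone 3086, the brighter Yaf2 probe set passed (adjusted p 0.0450; 0.0450 to 0.999 over its 12 alternatives).

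**Figure D1:**
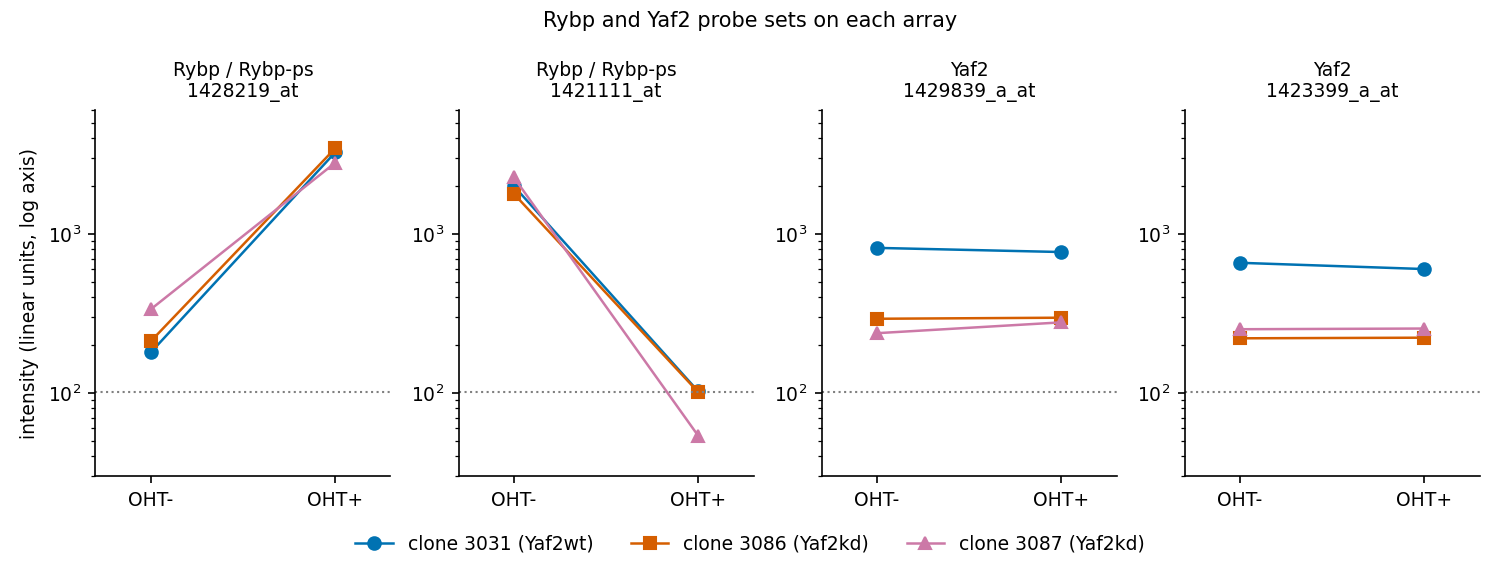
Intensity (linear units on a log axis) of both Rybp probe sets, which also match Rybp-ps, and of both Yaf2 probe sets on OHT- and OHT+ arrays; each line joins the arrays of 1 clone, and the dotted line is the median signal of 102. The first Rybp probe set rises from between 179.9 and 335.8 to between 2796 and 3443, the second falls to 102.4 or less, and Yaf2 stays near its OHT- level in each clone, with the Yaf2wt clone above both Yaf2kd clones.

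Rybp in turn was compared between Yaf2kd and Yaf2wt cells. On the OHT- arrays 1421111_at was at 1997 in the Yaf2wt clone and at 1785 and 2262 in the Yaf2kd clones, which lie on either side of it. On the same arrays 1428219_at was at 179.9 in the Yaf2wt clone and at 211.4 and 335.8 in the Yaf2kd clones, both above it. The Yaf2 difference adjusted for OHT also takes in the OHT+ arrays, where Rybp was meant to be depleted. It was -0.23 (log2, 95% interval -0.79 to 0.33) on 1421111_at and 0.25 (-0.21 to 0.72) on 1428219_at. Neither passed in limma (adjusted p 0.823 and 0.762). Yaf2kd arrays held 101% of the Yaf2wt signal on 1421111_at without OHT and 75.7% with it. On 1428219_at they held 152% and 96.1%.

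Ring1 and Rnf2, the catalytic RING proteins, had OHT differences under 0 on their bright probe sets, and none passed. Ring1, with 1 probe set, was at 247 without and 215 with OHT in clone 3031, at 243 and 231 in clone 3086, and at 301 and 227 in clone 3087. It was lower with OHT in each clone, and the OHT+ and OHT- groups do not overlap, at -0.23 ± 0.18 (log2 ± SE, adjusted p 0.805 in limma). Rnf2, the main RING protein of embryonic stem cells, has 2 bright probe sets. The brighter, 1424873_at, was at 3826 and 3875, at 3515 and 3486, and at 3154 and 2959 in the same order. The other, 1451519_at, was at 3035 and 2692, at 2891 and 2568, and at 2744 and 2266. The first barely differs between treatments (-0.028, 95% interval -0.24 to 0.18), whereas the second is lower with OHT in each clone (-0.21, -0.40 to -0.0093, adjusted p 0.606). The 3 dim Rnf2 probe sets were at 108 or less on every array, and their differences of 0.16, -1.88 and 0.41 had SEs of 0.30, 0.77 and 0.89.

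The Pcgf proteins set the identity of the complex. Pcgf1, the partner of Kdm2b and Bcor, was at 578 and 586 in clone 3031, at 717 and 608 in clone 3086, and at 761 and 779 in clone 3087, each time without and with OHT. Its OHT groups overlap (-0.061, 95% interval -0.36 to 0.23), and the Yaf2kd arrays all lie above the Yaf2wt arrays (0.29, -0.021 to 0.61, adjusted p 0.586). The bright probe set of Pcgf3 was between 1415 and 1608 on the 6 arrays, with an OHT difference of 0.051 (-0.17 to 0.27). Pcgf5, which forms complexes like those of Pcgf3, was between 1360 and 1704 on its brighter probe set and between 563 and 613 on the second, with OHT differences of 0.087 (-0.15 to 0.32) and -0.050 (-0.31 to 0.21). The bright probe sets of Pcgf1, Pcgf3 and Pcgf5 thus had differences of either sign between clones, none with separate OHT groups. The 2 dim Pcgf3 probe sets, 1440203_at and 1428424_at, had OHT differences of -0.034 ± 0.36 and 0.82 ± 0.58 (log2 ± SE). The dim one of Pcgf5 was at -0.22 ± 0.39. Of these, 1428424_at was higher with OHT in each clone, by 2.21, 0.22 and 0.028 in clones 3031, 3086 and 3087. It was under the limit for dim probe sets on all 6 arrays. With such SEs the dim probe sets give no usable bound.

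Over the 9 bright probe sets of Yaf2, Ring1, Rnf2, Pcgf1, Pcgf3 and Pcgf5 the OHT difference ran from -0.23 to 0.087 (log2). The highest upper bound of their 95% intervals was 0.40, a 1.32-fold rise, and the lowest lower bound was -0.64, a level of 0.643 times that without OHT. The intervals are for 1 probe set at a time, and those of Yaf2 rest in part on the knockdown clones.

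Kdm2b and Bcor, which join Pcgf1 in the same complex, differed between OHT+ and OHT- arrays in opposite directions. Kdm2b, a histone demethylase with the CpG-binding zinc finger described above, was lower with OHT on both of its probe sets and in all 3 clones. The probe set 1452198_at was at 2403, 2687 and 2564 without OHT in clones 3031, 3086 and 3087, and at 1734, 1758 and 1616 with it. The probe set 1459861_s_at was at 4279, 4925 and 4421 without OHT and at 3517, 3327 and 3134 with it. On both the lowest OHT- array is well above the highest OHT+ array. OHT+ arrays kept 72.1%, 65.4% and 63.0% of the OHT- signal in the 3 clones on the first and 82.2%, 67.6% and 70.9% on the second. limma gave -0.58 ± 0.091 (log2 ± SE, 95% interval -0.79 to -0.38, adjusted p 0.0612) and -0.45 ± 0.091 (-0.65 to -0.24, adjusted p 0.177), and neither passed. With the clone as a block the first passed (adjusted p 0.0360), as it did with dim probe sets left out (0.0437), and over its 11 alternatives the adjusted p ran from 0.0360 to 0.651.

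Bcor, a corepressor that binds Pcgf1, was higher with OHT on all 3 of its probe sets and in all 3 clones. The brightest, 1428773_s_at, was at 755, 868 and 845 without OHT in clones 3031, 3086 and 3087 and at 1163, 1211 and 1395 with it. The probe set 1429438_at was at 332, 311 and 296 without OHT and at 412, 505 and 618 with it. The dimmest of them, 1452910_at, was at 175, 173 and 142 without OHT and at 304, 290 and 274 with it. None of the 3 has overlapping OHT groups. The differences were 0.61 ± 0.11 (log2 ± SE, 1.53-fold), 0.69 ± 0.17 (1.61-fold) and 0.83 ± 0.19 (1.78-fold). Their adjusted p in limma was 0.0935, 0.284 and 0.246, so Bcor did not pass. The brightest passed when each gene other than Rybp had only its brightest probe set in the fit (adjusted p 0.0468 in limma). Over its 12 alternatives the adjusted p ran from 0.0468 to 0.717. On the same arrays 8 of the 10 fibroblast markers listed above were higher with OHT, and 0 of the 6 trophectoderm markers. The part of either in the Bcor and Kdm2b differences was not tested.

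**Figure D2:**
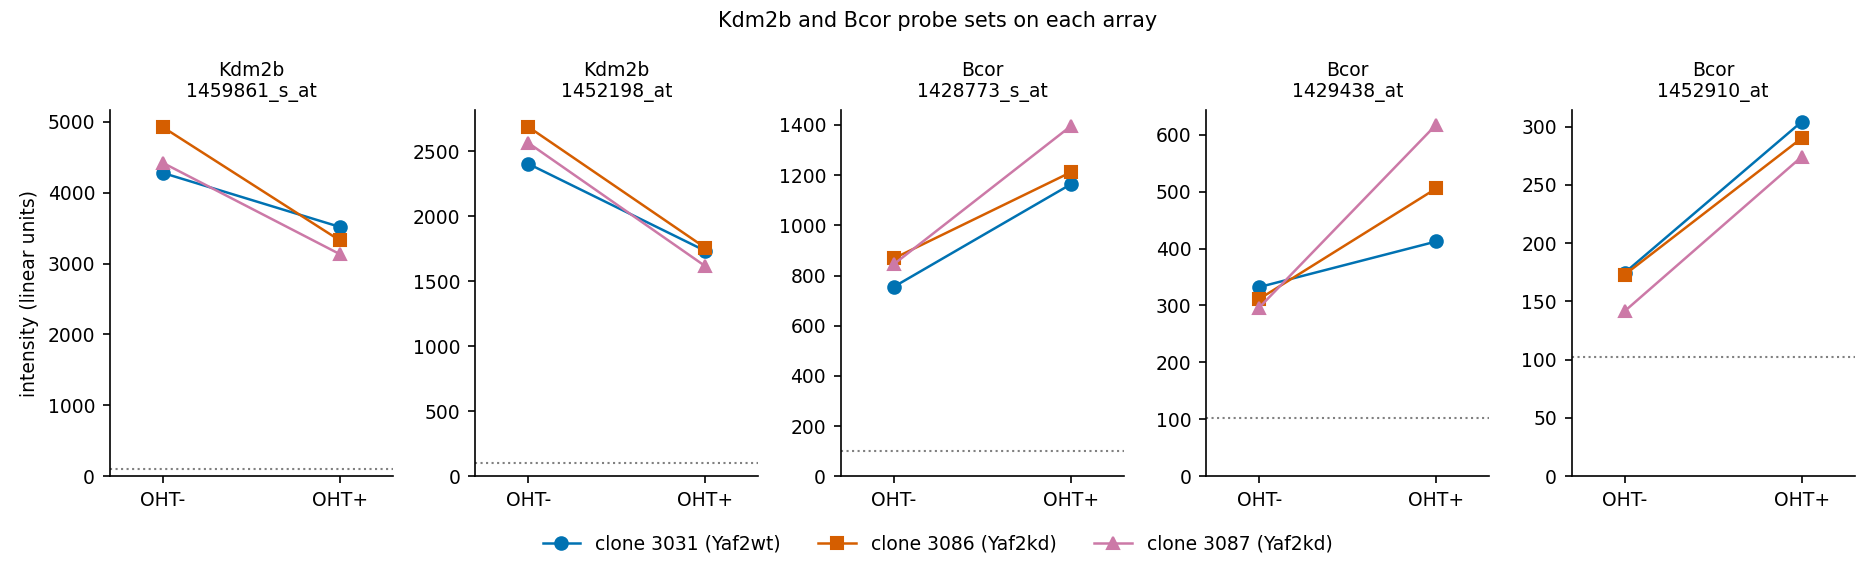
Intensity (linear units, axis from 0) of the 2 Kdm2b and 3 Bcor probe sets on OHT- and OHT+ arrays, with a line for each clone and a dotted line at the median signal of 102. Each clone goes down on both Kdm2b probe sets and up on all 3 Bcor probe sets, and Bcor 1429438_at ranges from 412 in the Yaf2wt clone to 618 in clone 3087 with OHT.

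Apart from Rybp, Kdm2b and Bcor had the largest OHT differences among the bright member probe sets. Their ranks are therefore given as a description with no test. Among the 22408 probe sets not under the median signal, 3.87% had a larger OHT difference than Kdm2b 1452198_at and 8.24% a larger one than 1459861_s_at. For Bcor the shares were 3.41%, 2.38% and 1.31%. Leaving Rybp aside, 7 of the 20 other probe sets had an unadjusted p under 0.05 in the OHT effect, against 7.99% of all probe sets. They are the 2 of Kdm2b, the 3 of Bcor and 2 of Rnf2, of which 1 is dim. The OHT groups did not overlap for 8 of the 20, against 12.5% of all probe sets, and for 7 of the 14 that were bright, against 14.4% of the bright ones. The probe sets of 1 gene share its RNA, so the first count stands for 3 genes, and the counts of separate groups for these and Ring1. In all, 12 of the 22 moved the same way in every clone, against 31.3% of all probe sets. These include both Rybp probe sets and dim ones of Rnf2 and Pcgf3, and several belong to the same gene.

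**Figure D3:**
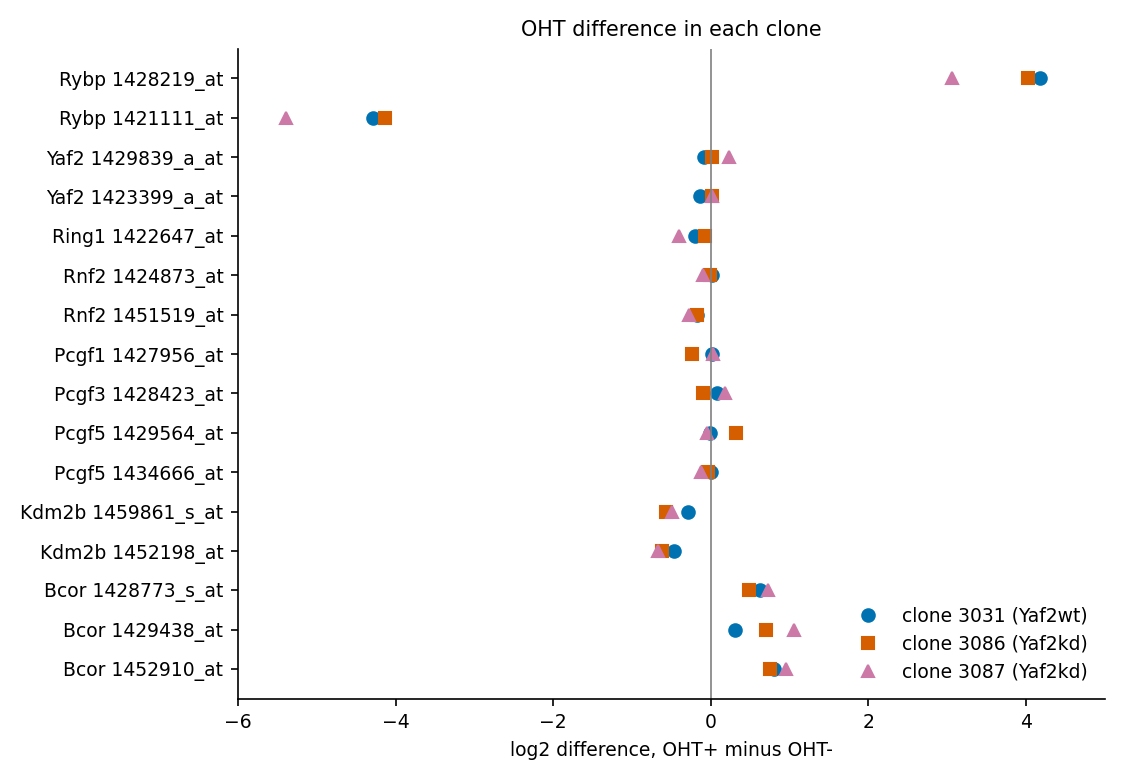
Log2 difference between the OHT+ and the OHT- array of each clone for the 16 member probe sets not under the median signal; each symbol is 1 clone, 1 array against 1. The Rybp probe sets, which also match Rybp-ps, lie at 3.06 or beyond on opposite sides, the Kdm2b symbols are all left of 0 and the Bcor symbols all right of 0, and the others lie between -0.41 and 0.32.

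For the Yaf2 knockdown, the other members were close to their Yaf2wt level. Over the 12 bright probe sets of Ring1, Rnf2, Pcgf1, Pcgf3, Pcgf5, Kdm2b and Bcor the difference ran from -0.24 to 0.29 (log2), with Rnf2 1424873_at lowest and Pcgf1 highest. Rnf2 was at 3278 ± 269 (SD, n = 4 arrays) in Yaf2kd and 3850 ± 35.0 (n = 2 arrays of a single clone) in Yaf2wt on that probe set. The groups do not overlap, with an adjusted p of 0.543 in limma. The Yaf2 groups of 4 and 2 arrays were apart for 5 of the 22 probe sets, against 18.2% of all, namely both of Yaf2, 1 of Rnf2, the 1 of Pcgf1 and a dim one of Pcgf3. The highest upper bound among the 12 was a 1.52-fold rise, for Pcgf1. The fit took arrays of the same clone as independent, and with a single Yaf2wt clone this bound does not cover the spread between clones. Kdm2b was at 0.043 and 0.00084, and Bcor at 0.17, 0.15 and -0.13, all closer to 0 than their OHT differences. Whether the effects of OHT and of Yaf2 status on these genes differ from each other was not tested.

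The combined loss sets the 2 Yaf2kd OHT+ arrays against the 1 Yaf2wt OHT- array, that is, knockdown cells given the treatment meant to deplete Rybp against untreated Yaf2wt cells. Only the 2 Rybp probe sets passed in limma, at -4.76 ± 0.38 and 4.11 ± 0.29 (log2 ± SE, adjusted p 0.0321 and 0.0239), and these are also the only 2 called among all probe sets (0.00444%). Both calls are lost without either of the Yaf2kd OHT+ arrays. Ring1, Rnf2, Pcgf1, Pcgf3 and Pcgf5 had differences between -0.33 and 0.25 on their bright probe sets. Bcor was at 0.78 ± 0.18, 0.75 ± 0.25 and 0.69 ± 0.32 and Kdm2b at -0.51 ± 0.15 and -0.41 ± 0.14, and none of these 5 passed (adjusted p 0.696 to 0.821). This comparison shares its arrays with the OHT effect, so its values are not a repetition of it.

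**Figure D4:**
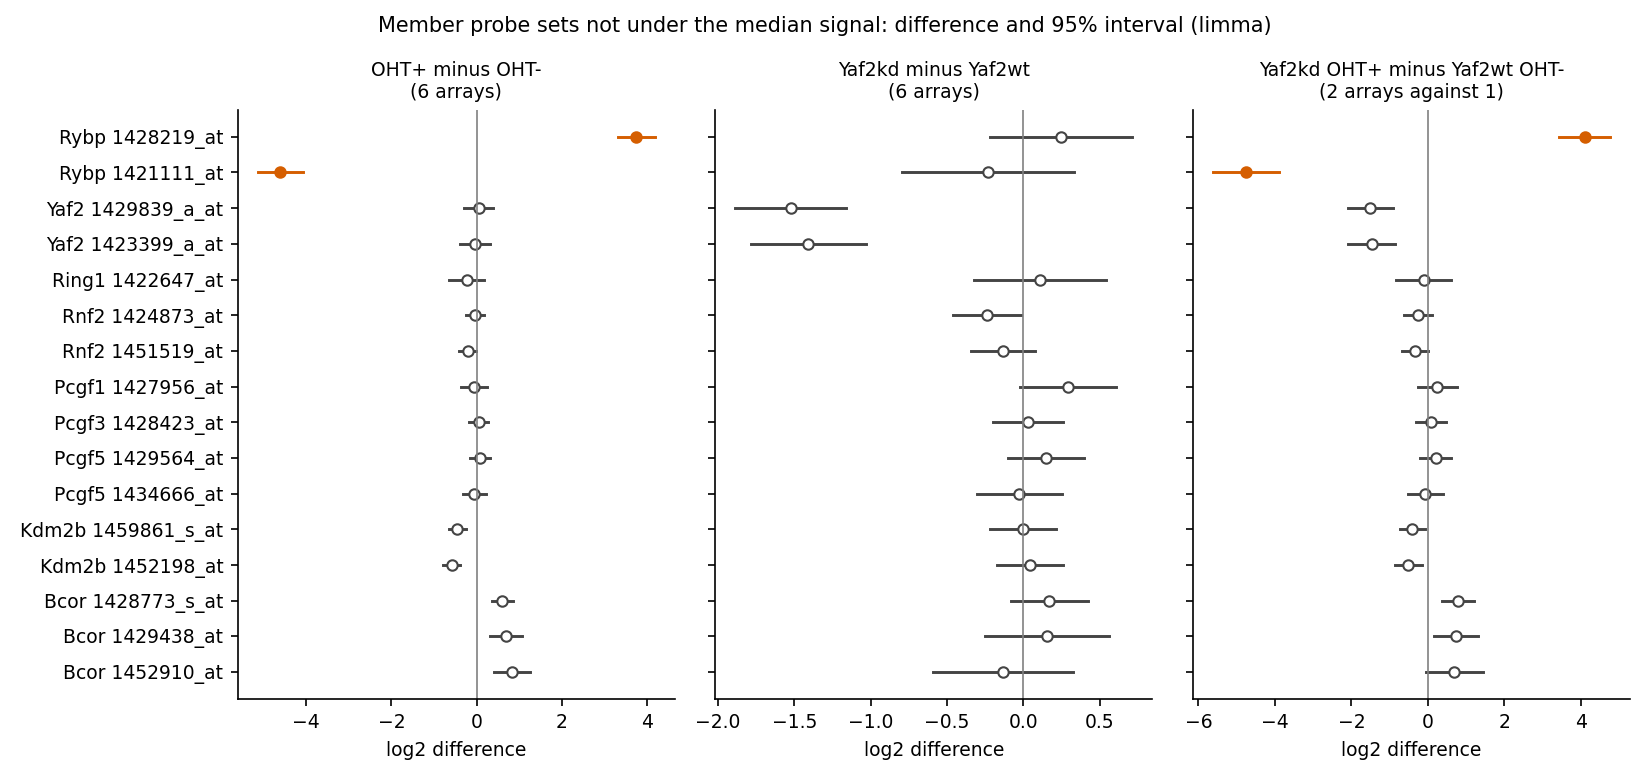
Log2 differences (points) with 95% intervals from limma (bars) for the 16 member probe sets not under the median signal, in the OHT effect, the Yaf2 effect and the combined loss; each panel has its own scale, and filled orange points passed at an adjusted p under 0.05. Only the Rybp probe sets, which also match Rybp-ps, are filled, in the outer panels, while some open points have intervals to one side of 0 without passing. These are Kdm2b, Bcor and Rnf2 1451519_at on the left, Yaf2 and Rnf2 1424873_at in the middle, and Yaf2, Kdm2b and Bcor other than 1452910_at on the right.

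Whether the OHT effect depends on Yaf2 status was tested as the difference between the OHT effects of Yaf2kd and Yaf2wt cells. limma called 0 probe sets (0%), with 1077 at an unadjusted p under 0.05 over all and 0 among the 22 members. Over the 16 bright members the difference ran from -0.63 to 0.57 (log2). Bcor 1429438_at had the highest, since its OHT difference was 0.31, 0.70 and 1.06 in clones 3031, 3086 and 3087, with a 95% interval of -0.25 to 1.38. The other Bcor probe sets were at -0.022 and 0.048, so the 3 probe sets do not share this pattern. With a single Yaf2wt pair of arrays these intervals are wide.

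The other Polycomb genes were read from fixed lists. Canonical PRC1 subunits had 23 probe sets for 11 of 12 genes, of which 0 passed in the OHT effect in limma and 6 had an unadjusted p under 0.05, 3 higher and 3 lower (7.99% of all probe sets had one). Further subunits of variant complexes, such as those of the Pcgf6 complex, had 61 probe sets for 18 of 20 listed symbols, of which 0 passed and 4 had an unadjusted p under 0.05. PRC2, the complex that methylates histone H3, had 37 probe sets, of which 0 passed and 14 had an unadjusted p under 0.05, 13 higher and 1 lower. Genes of H2A deubiquitination, both enzymes and partner proteins, had 20 probe sets, of which 0 passed. An unadjusted p under 0.05 was seen for 4, all of partner proteins. The median OHT difference of the bright probe sets was -0.064 for canonical PRC1, 0.0087 for the variant subunits, 0.22 for PRC2 and 0.026 for H2A deubiquitination, against -0.0068 for all bright probe sets. In the Yaf2 effect 0 passed in any of these lists, with 6, 6, 12 and 3 at an unadjusted p under 0.05 in the same order (8.95% of all probe sets). Of these, 5, 3, 12 and 3 were lower in Yaf2kd. The bright medians were -0.18, 0.0081, -0.21 and -0.052 against 0.011. Several probe sets of the PRC2 list belong to the same genes, so its counts and medians do not weigh each gene equally.

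Some probe sets correlated highly with a member over the 6 arrays, a measure that ignores the size of a difference. Of 19623 bright probe sets annotated to 1 gene, those closest to 1428219_at in Pearson correlation were Ddx4 (0.996), a germ cell RNA helicase, Slc39a11 (0.995), Klf9 (0.991), Ero1a (0.991) and Taf7l (0.990). Closest to 1421111_at were Sephs1, Pclaf, Pex13, Zfp40 and Slx1b (0.988 to 0.990). Closest to the brighter Yaf2 probe set were Tasor (0.995), Clock (0.995), Ddx5 (0.994), Nap1l1 (0.993) and Gfpt1 (0.991). The first set had OHT differences from 0.14 (Ero1a) to 1.92 (Taf7l), against 3.75 for 1428219_at (log2). In the second they ran from -0.54 (Slx1b) to -0.35 (Pex13), against -4.61. The third had Yaf2 differences from -1.44 (Clock) to -0.17 (Nap1l1), against -1.52. The 6 arrays share 3 clones, and so many candidates over so few arrays give high values, so these are descriptions with no test.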

How the data were processed

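The authors' deposited values are probe-set intensity on a linear scale. Per the submitters' processing notes, Affymetrix Expression Console and RMA were used; no source used here gives their versions, their roles or the background step. Every array holds the same sorted values, as quantile normalization leaves them. The table's 45101 probe sets were named from the annotation that fits them, although the series text calls the array 430A 2.0. Log2 of the intensity was taken with no pseudocount, and 64 control probe sets were left out.

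Each probe set was fitted with lmFit and eBayes (intensity trend) of limma (3.58.1, under R 4.3.3) and p-values were adjusted by Benjamini-Hochberg over 45037 probe sets, with a threshold of 0.05. The OHT and Yaf2 effects came from an additive model with 3 residual degrees of freedom. The combined loss and the difference of OHT effects came from a 4-group model with 2, which takes the spread of the Yaf2kd pairs for the single Yaf2wt arrays too. The trend was used because the SD between the Yaf2kd OHT+ arrays was 0.55 (median, log2) for probe sets under the median signal and 0.14 for the others. The fit was tested on simulated data. The members, gene lists and tests were chosen with earlier results of these data known. Every member probe set is described, and of the other Polycomb lists only passing genes were to be named. Probe-set genes came from the platform annotation, and gene identifiers of all 9 members matched RefSeq. OHT+ and OHT- arrays of the same clone, per the labels, form pairs. The reported limma fits had no clone term and so did not use this pairing. For the OHT effect, only the alternative with the clone as a replicate block did. Deviations from the group means correlated at r 0.15 within the Yaf2kd clones. Arrays have no counting depth: their number limits the precision. Beyond clone names the labels do not say how cultures were separated, so p-values cover only the spread seen here, which may be technical.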

Additional observations from a re-analysis of the deposited data

How the results depend on the processing

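The count of member probe sets called in the OHT effect, 2, became 0 without the intensity trend, where limma called 0 of all probe sets. With dim probe sets left out or with the clone as a replicate block the count was 3. The same count came from the brightest probe set of each gene, a fit that kept both of Rybp. It stayed at 2 with a pseudocount of 16, with arrays rescaled to 12 control genes, and without any 1 array. The count in the combined loss, 2, became 0 without the trend and ranged from 0 to 2 when 1 Yaf2kd array was left out. With the clone as a random replicate block it stayed at 2. The correlation fitted for that block was -0.088. A negative value makes no allowance for arrays of the same clone being alike, so this alternative does not test that. The count in the Yaf2 effect, 0, ranged from 0 to 1 when 1 array was left out, and that in the difference of OHT effects was 0 in every fit. Leaving out a Yaf2wt array gives no value for these 4-group comparisons. The number of members moving the same way in all clones was 12, and 11 after rescaling, an alternative chosen after seeing the data. Over all probe sets the 63 OHT calls became 100 with dim ones left out, 101 with the clone as a block and 14 to 53 without 1 array. No called member changed sign under any alternative. Apart from the calls given in the report the replicate block changed no other call. Signal limits the 6 dim probe sets.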
